A study of Sorghum bicolor with 34 samples.

Results

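CHG sites with differential methylation between roots of BTx623 sorghum grown on limiting phosphorus (LP) and on sufficient phosphorus (SP) are described here. CHG denotes a cytosine followed by any base but G and then by G, and the members are all rows of the authors' deposited table of CHG cytosines for this comparison. The table lists 28213 CHG sites, of 145883 sites over the tables of the CHG, CG and CHH contexts, where H is any base but G. BTx623 is the inbred grain sorghum line of the reference genome. Its seedlings had grown for 10 days on media with 2.5 μM phosphate (LP) or 45 μM phosphate (SP), and 2 bisulfite libraries were made for each phosphorus level, each from root material of 10 plants. The labels name whole roots, while the study's methods name the apices of all primary and lateral roots, so each library is a mixture of root types and cell types. Bisulfite turns unmethylated cytosines into uracil and leaves methylated cytosines, so the share of reads that keep a cytosine gives its methylation level.

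The tables pool the 4 libraries. They give the position and strand of each listed cytosine and the authors' own comparison, which was not used. A site therefore counts here as listed or not listed. No methylation level per library, no read depth, no direction between LP and SP and no test between the groups is given, and the number of cytosines that entered the comparison is not known. What follows describes where the listed CHG sites lie, with the CG and CHH tables of the same libraries beside them. Sites in a run share libraries and reads and are not independent, so shares are given as descriptions of the lists, with no p-value.

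In plants, CHG methylation is maintained by chromomethylases, which bind nucleosomes carrying dimethylation of lysine 9 of histone H3, while the histone methyltransferases that set this mark bind methylated DNA. This loop keeps CHG methylation high over transposons and other silent repeats and low over most expressed genes. CG methylation is copied onto the new strand after replication by MET1-type methyltransferases and is also common within the bodies of expressed genes. CHH methylation is set anew through small RNAs or by a further chromomethylase. A CHG trinucleotide whose middle base is A or T has a CHG cytosine on the opposite strand as well, so that methylation can be present at both cytosines.

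CHG sites made up 19.3% of all listed sites, against 71.5% for CG (104262 sites) and 9.19% for CHH (13408 sites). They were spread over both strands, with 14376 CHG sites on the plus strand and 13837 on the minus strand. The 10 chromosomes held 27335 CHG sites, and 137 unplaced scaffolds (sequences not joined to a chromosome) held the other 878, or 3.11% of CHG sites. The scaffold share was 1.01% for CG and 0.612% for CHH. Among the scaffolds, super_26 had the most CHG sites with 57, beside 38 CG sites and 0 CHH sites. On super_51, 48 CHG sites were listed with 5 CG sites and 1 CHH site. On super_2002, 45 CHG sites were listed with 1 CG site, and super_101 had 30 CHG sites with 1 CG site. Other scaffolds had more CG than CHG sites, such as super_16 with 31 CHG and 62 CG sites. Over all scaffolds 878 CHG and 1057 CG sites were listed, with more CHG than CG sites on 54 scaffolds and fewer on 131.

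Chromosome 9 had the densest listing, with 57.3 CHG sites per Mb (3402 sites), and chromosome 6 the sparsest, with 25.1 per Mb (1540 sites). Chromosome lengths were taken as the last listed site or annotated gene. Chromosome 8 had 46.5 CHG sites per Mb, chromosome 3 had 45.8 and chromosome 1 had 43.3, while chromosome 10 had 31.3 and chromosome 7 had 34.5. The order was not that of the CG sites. Chromosome 1 had the most CG sites per Mb, 220, and 19.7 CHG sites for every 100 CG sites. Chromosomes 5 and 8 each had 38.2 CHG sites for every 100 CG sites, and chromosome 9 had 36.1. Leaving out runs of at least 5 neighbouring CHG sites, which are defined below, chromosome 9 still had the highest density with 37.2 CHG sites per Mb and chromosome 6 the lowest with 21.0. The plus strand share lay between 49.0% on chromosome 7 and 51.7% on chromosome 10 in 9 chromosomes. On chromosome 5 it was 55.4%. This chromosome includes LOC8076785, with 120 CHG sites on the plus strand and 18 on the minus strand, and LOC8076780, with 65 and 1. The share without these genes was not computed.

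Counted in 688 bins of 1 Mb, the CHG sites had a median of 30.5 per bin, with quartiles of 20 and 48. The fullest bin held 270, and 17 bins held 0 CHG sites. All 17 also held 0 CG sites, 0 CHH sites and 0 gene starts. The fullest 10% of bins (69 bins) held 29.7% of the CHG sites on the chromosomes. The fullest 10% for CG held 24.6% of the CG sites, and that for CHH held 24.6% of the CHH sites. CG sites had a median of 119.5 per bin and CHH sites a median of 18. The fullest 10 bins held 2088 CHG sites, or 7.64% of those on the chromosomes, and lay on 5 chromosomes.

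**Figure D1:**
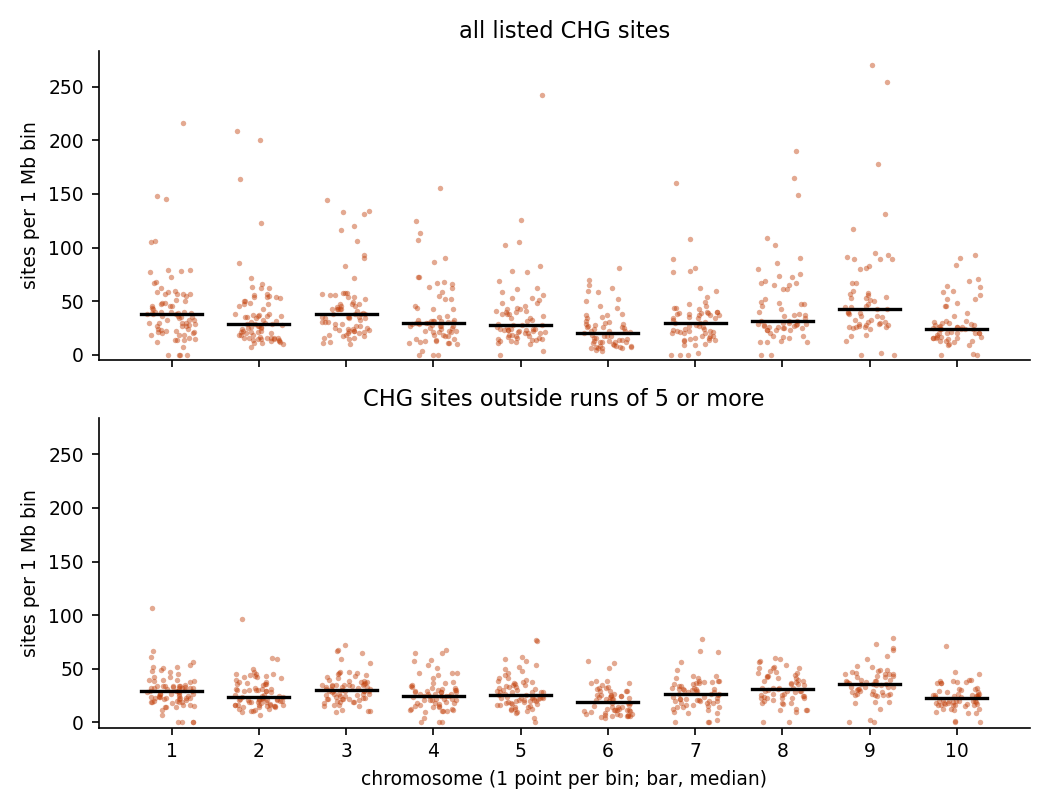
Listed CHG sites per 1 Mb bin on each of the 10 chromosomes, with 1 point per bin and a bar at the chromosome's median. The upper panel counts all CHG sites and reaches 270 in a bin of chromosome 9. The lower panel leaves out sites in runs of 5 or more and reaches 107.

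On chromosome 9, the bin from 53000001 to 54000000 held 270 CHG sites, of which 109 formed 1 run, and the bin from 40000001 to 41000000 held 254. The fullest bin had 126 annotated gene starts and the next one 17, so the fullest bins were not alike in gene number. On chromosome 5, the bin from 10000001 to 11000000 held 242 CHG sites. On chromosome 1, the bin from 8000001 to 9000000 held 216. Chromosome 2 had 3 of the fullest bins, with 209 CHG sites from 8000001 to 9000000, 200 from 14000001 to 15000000 and 164 from 18000001 to 19000000. Chromosome 8 had 190 CHG sites from 2000001 to 3000000 and 165 from 7000001 to 8000000, and the last bin of chromosome 9, which is not full length, from 59000001 to 60000000, had 178. In these 10 bins between 33 and 96 CHG sites lay outside runs of 5 or more, and the largest run alone held between 11.98% and 40.4% of the sites. In each of these bins most CHG sites thus lay in runs of 5 or more, against 27.2% of all listed CHG sites. The bins were picked for their CHG counts, which favours bins with large runs. With each run counted once, the median was 23 loci per bin and the highest count 77, and the fullest 10% of bins held 19.4% of the loci.

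A run was taken as a chain of at least 2 CHG sites on either strand in which each start lay within 100 bases of the one before. The table fell into 3486 runs, which held 14409 CHG sites (51.1%), and 13804 sites that stood alone (48.9%). Runs held 55.0% of the CG sites and 12.7% of the CHH sites. Of the CHG runs, 1639 had exactly 2 sites, 1033 had 3 or 4 sites, 570 had 5 to 9, 194 had 10 to 19 and 50 had 20 or more. The 814 runs with 5 or more sites held 7671 CHG sites, or 27.2% of the table, against 20.1% of the CG table in 2503 such runs and 1.10% of the CHH table in 24. Such CHG runs had a median of 7 sites over 161 bases, and a median density of 4.53 sites per 100 bases. The largest CHG run had 109 sites, the largest CG run 63 and the largest CHH run 9. Between successive CHG sites the median gap was 716 bases, with quartiles of 27 and 29356 bases, so the gaps varied widely. For CG sites the median gap was 599 bases, with quartiles of 20 and 6128 bases. The CHH sites were mostly scattered, with a median gap of 18058 bases.

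The 10 largest runs held 586 CHG sites and no listed CHH site. The largest, at chr9:53537822-53539577, had 109 CHG sites over 1756 bases, 71 on the plus strand and 38 on the minus strand, with 9 CG sites between its ends. The run with 73 CHG sites, at chr9:53539736-53540670, followed it 159 bases on. Both lay in the overlapping gene models LOC8064179 (protein-coding) and LOC110430049 (a long non-coding RNA). The third, at chr8:2721110-2722261, had 58 CHG sites and 18 CG sites and overlapped LOC110429920, a long non-coding RNA. The run at chr9:40467534-40468513 had 54 CHG sites and 11 CG sites and lay in LOC8061322. Runs of 53 CHG sites were found 3 times, at chr3:68454672-68455506 in LOC110433303, at chr2:8458948-8460117 in LOC110432596, and at chr4:49421201-49422079, 1167 bases from LOC8056088. The chromosome 4 run was lopsided, with 9 CHG sites on the plus strand and 44 on the minus strand, and only 1 CG site. A run of 47 CHG sites lay at chr2:56003437-56004084, 509 bases from LOC8054608, and 1 of 44 at chr1:8767129-8767864 in LOC8063366. The run of 42 CHG sites at chr2:18306453-18307499 had its nearest gene, LOC8061664, 10245 bases away and held 1 CG site. Across the 10 runs the density lay between 4.01 and 7.81 CHG sites per 100 bases, and 7 of the 10 overlapped a gene body. Coordinates are those of the deposited table, counted from 1, and the genome build used for bisulfite reads is not given in the sources used here.

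Several of these runs were pieces of longer loci. When sites up to 1 kb apart were joined, 142 loci had 20 or more CHG sites, and together they held 5878 CHG sites (20.8% of the table) within 352 kb. Their median span was 2344 bases, and the longest was 7719 bases. The nearest other CHG site lay at a median of 7.40 kb from these loci, and over 10 kb away for 61 of them. A distance over 1 kb is fixed by the joining, and over all successive CHG sites the upper quartile of the gap was 29356 bases. The locus with the most CHG sites, 219, ran over 3969 bases at chr9:53537203-53541171, with 147 sites on the plus strand and 72 on the minus strand. It held 28 CG sites, and 0 CHG sites were listed in the 2 kb on either side of it. The locus at chr9:40464915-40472633 had 205 CHG sites, 103 on the plus strand and 102 on the minus strand, with 38 CG sites and likewise 0 CHG sites in the 2 kb on either side. The third, at chr5:10437715-10442889, had 138 CHG sites, 120 of them on the plus strand, with 10 CG sites and 2 CHH sites. Dense loci occurred on every chromosome, from 6 loci on chromosome 6, with 11.8% of its CHG sites, to 22 loci on chromosome 1, with 23.3%. On chromosome 9, 16 loci held 28.3% of its CHG sites.

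**Figure D2:**
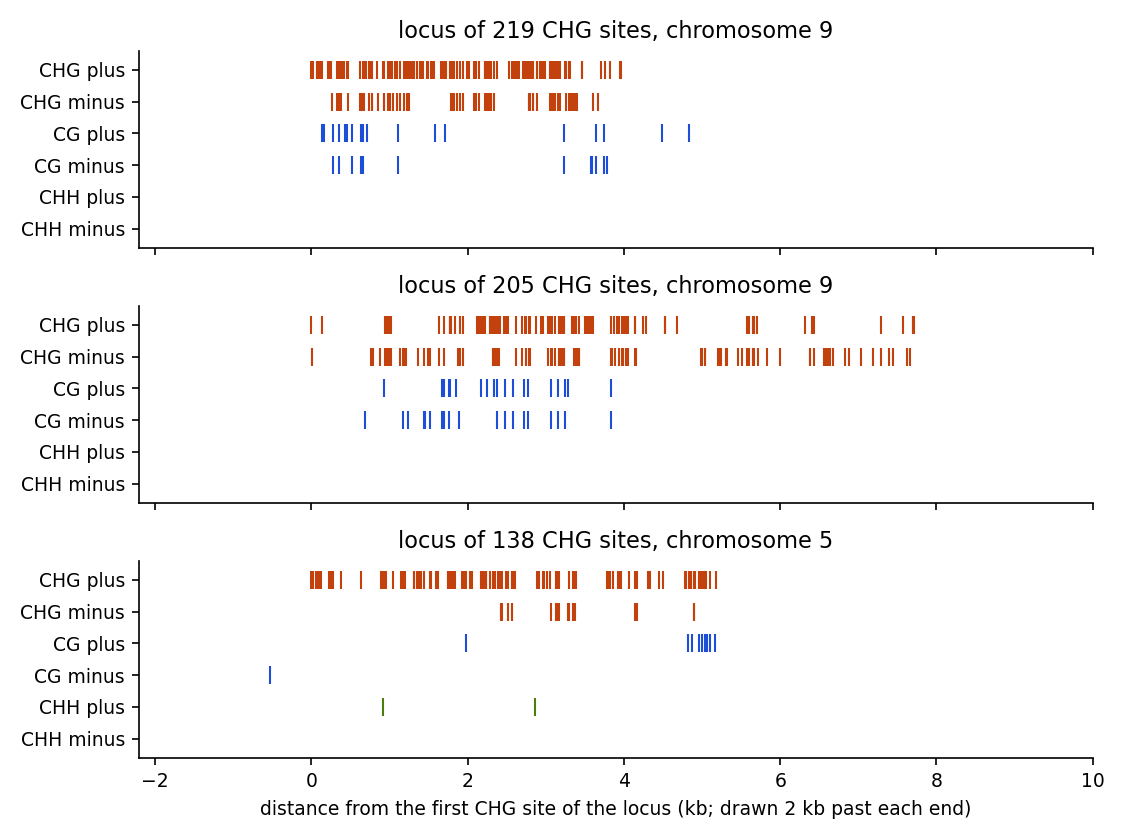
Listed sites by context and strand in the 3 loci with the most CHG sites, against distance in kb from the first CHG site of the locus, with 2 kb drawn past each end. Each tick is 1 listed cytosine. The loci hold 219, 205 and 138 CHG sites against 28, 38 and 10 CG sites.

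The symmetry of CHG sites was examined through strand partners. A CHG cytosine on the plus strand has its partner on the minus strand at its start + 2, and 1242 of the 14376 plus strand CHG sites (8.64%) had a listed CHG partner there. The 14376 sites include those with C as the middle base, which have no CHG partner and whose number is not known here. At distances of 5 to 20 bases, between 31 and 60 plus strand sites had a minus strand CHG site, with a median of 45.5. The remaining short distances followed from the definition of the context. No pair can exist at distances of 1 and 4 bases, and 0 were listed at each. A distance of 3 bases needs the tetranucleotide CCGG, and 3 pairs were listed. In the CG table, whose partner lies at start + 1, 10586 of 51986 plus strand sites (20.4%) had a listed partner. Every CG site has a partner cytosine, so the CHG and CG shares do not have the same base.

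Listed partners were mostly in runs with further CHG sites. In runs of 20 or more, 335 of 821 plus strand CHG sites had a listed partner (40.8%), in runs of 5 to 19 the share was 19.9%, and in runs of 3 or 4 it was 9.58%. In runs of exactly 2 it was 5.86% (101 of 1723), so 101 of the 1242 pairs had no other CHG site in their run. The 6906 plus strand CHG sites that stood alone cannot have a listed partner, since a partner would make them a run, and each pair adds to the size of its own run. Part of the difference between run sizes is therefore fixed by the definition of a run. Outside runs of 5 or more, lone sites included, the partner share was 2.56%. For CG sites the share was 30.7% in runs of 3 or 4, 31.5% in runs of 5 to 19 and 32.5% in runs of 20 or more. By chromosome, the CHG partner share lay between 5.05% on chromosome 7 and 14.6% on chromosome 9. The value of chromosome 9 rested on the loci of 219 and 205 CHG sites described above. Without these 2 loci it was 9.19% (134 of 1458 plus strand sites). Chromosome 2 had 9.44% and chromosome 4 had 9.57% with all their loci kept. No loci were left out on the other chromosomes, so the reduced value cannot be ranked among theirs.

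**Figure D3:**
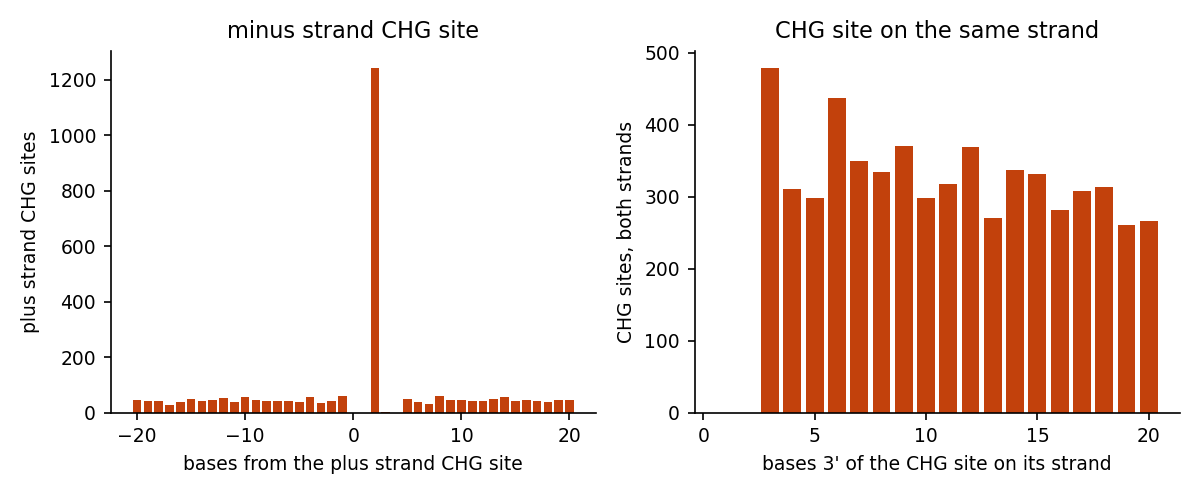
Left, plus strand CHG sites with a minus strand CHG site at each distance from 20 bases before to 20 bases after; the bar at + 2 stands for the 1242 strand partners. Right, CHG sites of both strands with another CHG site on the same strand at 1 to 20 bases in the 3′ direction, with 479 at 3 bases and 437 at 6 bases.

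Apart from partners, neighbouring CHG sites lay mostly on the same strand. Of successive CHG sites 1 to 10 bases apart, 83.2% were on the same strand (2243 of 2697, partners left out), and of those 11 to 25 bases apart, 85.2%. The share was 76.9% at gaps of 51 to 100 bases, 71.5% at 101 to 200 bases, 59.4% at 201 to 500 bases and 50.0% at 5001 to 20000 bases. CG sites had 85.8% at 1 to 10 bases, 62.9% at 101 to 200 bases and 49.9% at 5001 to 20000 bases, and CHH sites had 94.7%, 62.3% and 51.4% at the same gaps. Runs are made of these same neighbours, strand partners included, so their strands are not a separate observation. Of the 1639 CHG runs of 2 sites, 1360 (83.0%) lay on 1 strand. Of the 814 runs of 5 or more, 185 lay wholly on the plus strand, 175 wholly on the minus strand and 454 on both. The median share of the leading strand was 85.7%, a measure that cannot fall below 50%. Of the 50 runs of 20 or more, 4 lay on 1 strand. On the same strand, the distances of 3 and 6 bases were the most frequent up to 20 bases, with 479 and 437 CHG sites, against 311 at 4 bases and 299 at 5 bases. Over distances of 3 to 30 bases, multiples of 3 averaged 340 CHG sites and the other distances 287. The first mean includes the high counts at 3 and 6 bases. No genome sequence was used, so the spacing of all CHG cytosines is not known here. Whether listed sites differ from it was not tested.

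**Figure D4:**
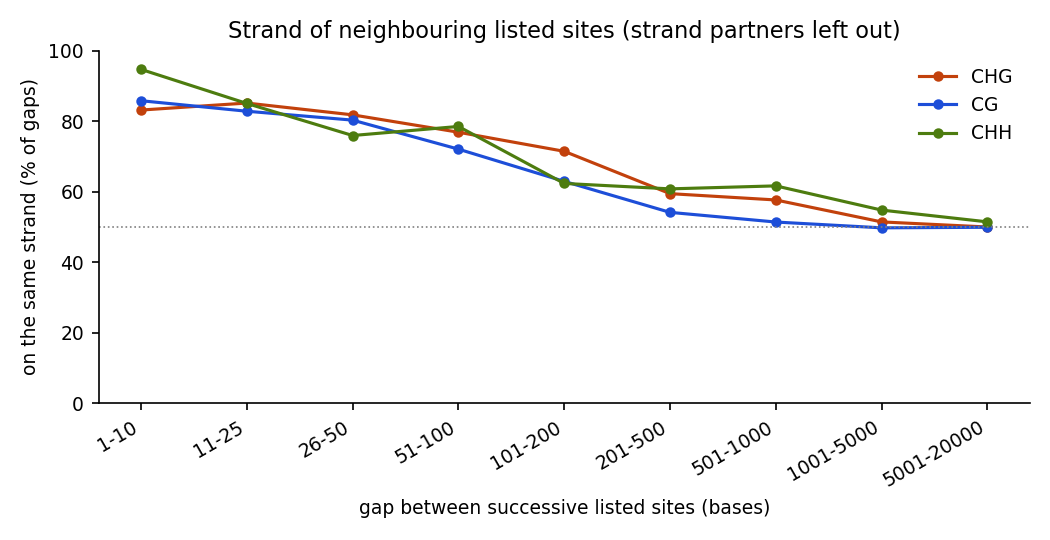
Share of successive listed sites that lie on the same strand, in percent, by the gap between them in bases, for CHG, CG and CHH sites with strand partners left out. The CHG share is 83.2% at 1 to 10 bases and 50.0% at 5001 to 20000 bases; the dotted line marks 50%.

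No base was listed in more than 1 of the 3 tables, which follows from the definition of the contexts. Of the CHG sites, 9741 (34.5%) had a listed CG site within 100 bases and 612 (2.17%) a listed CHH site. Seen from the other lists, 13.9% of the CG sites and 3.71% of the CHH sites had a CHG site within 100 bases. Both other contexts were within 100 bases of 222 CHG sites, and neither was near 18082 CHG sites, or 64.1%. In runs of 5 or more, 55.9% of CHG sites had a CG site within 100 bases, and outside such runs 26.5%. CHH sites did not follow this split, with 1.94% of CHG sites in runs of 5 or more and 2.25% of those outside having one within 100 bases. Of the 814 runs, 439 (53.9%) held at least 1 CG site between their ends, 76 held more CG than CHG sites, and 19 held a CHH site. Among the 142 joined loci, 28 held no CG site and 24 held a CHH site.

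CG neighbours of CHG sites, like CHG neighbours, were mostly on the same strand. At each distance of 4 to 20 bases in either direction, 193 to 300 CHG sites had a CG site on their own strand and 50 to 88 had one on the other strand. The first base 3′ of a CHG site held a CG site in 199 cases, which can occur only in the trinucleotide CCG. Positions alone thus give the middle base of some sites. Partner pairs require A or T there and comprise 2484 CHG sites (8.80%), and a listed CG cytosine in the same trinucleotide requires C and was present for 217 CHG sites (0.769%). For 90.4% of CHG sites the middle base is not given by the positions, and no genome sequence was used.

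Gene-rich and gene-poor bins were then compared, with gene starts counted from the RefSeq gene table of the assembly Sorghum_bicolor_NCBIv3. The 172 bins with the fewest gene starts (0 to 8 each) held 12.7% of CHG sites, against 7.21% of CG sites and 18.9% of CHH sites. They include the 17 bins with 0 sites of any context. The 172 bins with the most (86 to 158 each) held 29.8% of CHG sites, against 48.2% of CG sites and 27.5% of CHH sites. CHG sites were most numerous in the 172 bins next below these (30 to 86 gene starts each), with 35.9% of the sites and a median of 44 per bin. By place on the chromosome, the outermost 20% of bins by distance to the nearer end had 50.0 CHG sites per Mb, the next 53.8 and the innermost 21.9. CG sites had 259, 215 and 48.5 per Mb in the same classes of bins, and CHH sites 20.01, 19.6 and 14.0. Between these, CHH sites had their highest values, 20.95 and 22.3 per Mb, while CHG sites had 41.1 and 31.9. Over the 688 bins, CHG counts and gene starts had a Pearson r of 0.30 and a Spearman rho of 0.48, and CG counts and gene starts an r of 0.90 and a rho of 0.92. CHG and CG counts per bin had an r of 0.46, and CHG and CHH counts an r of 0.20. Bins share the 4 libraries, their read depth and their base composition, so these are descriptions.

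Gene bodies held 7427 of the 27335 CHG sites on the chromosomes (27.2%), while they cover 18.8% of the bases. The share was 47.4% for CG sites and 11.8% for CHH sites. A further 11.7% of CHG sites lay within 1 kb of a gene on either side (7.48% of bases), and 61.1% lay elsewhere (73.7% of bases). The share in gene bodies differed between dense and scattered sites. Of CHG sites in runs of 5 or more, 46.0% lay in gene bodies, and of those outside such runs 19.97%. Of the 49 runs of 20 or more on the chromosomes, 34 (69.4%) overlapped a gene body, and of all 803 runs of 5 or more, 329 (41.0%). Of the 139 joined loci on chromosomes, 88 overlapped a gene body and 48 lay wholly inside 1. The 18.8% of bases holds for single positions, and a longer run or locus touches a gene more easily. The overlap to be had from span alone was not computed, so these overlap shares are not compared with a background or with each other.

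Around the edges of 19551 protein-coding genes of at least 2 kb, with both edges of each gene counted, CHG sites fell off at the gene edge. Between 1 and 2 kb outside there were 208 CHG sites per 100 bases, summed over all edges, and in the first 500 bases inside there were 102. Between 1 and 2 kb inside there were 182, so for all CHG sites together the lowest counts lay near the edge. The lowest 100 bases held 93 CHG sites, starting 300 bases inside, and the highest held 255, starting 800 bases outside. CG sites had 1223 outside and 1239 in the first 500 bases inside, with a low of 543 in the last 100 bases before the edge and a high of 2458 starting 900 bases inside. Between 1 and 2 kb inside, CG sites had 1993. CHH sites had 103 outside, 18.6 in the first 500 bases inside and 55.4 between 1 and 2 kb inside. Outside runs of 5 or more, CHG sites numbered 142 per 100 bases outside and 53.2 in the first 500 bases inside. Between 1 and 2 kb inside they numbered 89.4, still below the count outside, so for these sites the low counts reached as far as 2 kb inside. With all sites moved by 20 kb, the CHG values were 187 outside and 190 in the first 500 bases inside, so that the profile depended on the position of the genes. This match between the positions of the sites and the gene table is the ground for using that table here.

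**Figure D5:**
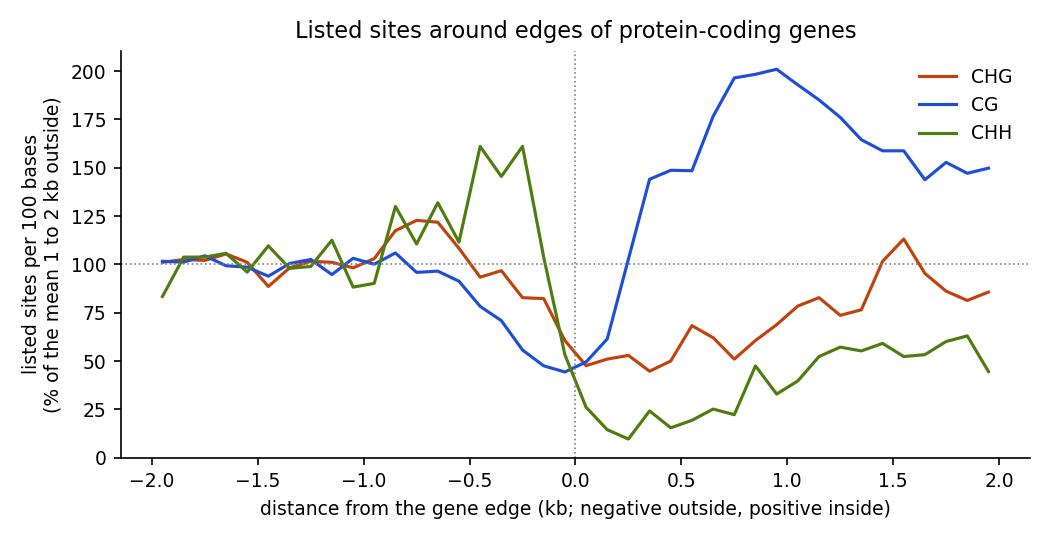
Listed sites per 100 bases around the edges of 19551 protein-coding genes, as a percentage of the mean between 1 and 2 kb outside the gene, against distance from the edge in kb (negative outside, positive inside). The CHG line is lowest 300 to 400 bases inside the gene, and the CG line is highest 900 to 1000 bases inside.

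Of 32578 annotated genes on the chromosomes, 3375 (10.4%) had a CHG site in the body or within 1 kb, and 435 had 5 or more. A CG site was listed in the same window of 16808 genes (51.6%), and 851 genes with a CHG site had none. The share with a CHG site was 9.87% for protein-coding genes, 13.7% for long non-coding RNA genes and 15.0% for pseudogenes, whose median lengths were 3092, 1988 and 2461 bases. CHG sites were thus found at a minority of genes, and some of these had very many.

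The 20 genes with the most CHG sites comprised 14 protein-coding genes, 4 long non-coding RNA genes and 2 pseudogenes, and 6 of them lay on chromosome 9. All but 1 had more CHG than CG sites, and 14 had no CHH site. The list was ranked by CHG sites, which favours genes with more CHG than CG sites. Of all 32578 genes, 3375 had a CHG site in the body or within 1 kb, and 16808 had a CG site there. Overlapping LOC8064179 and LOC110430049 shared the same 219 CHG sites, all in the gene body. LOC8061322, also on chromosome 9, had 205 CHG and 38 CG sites in its body of 10946 bases. On chromosome 1, LOC8063366 had 175 CHG and 84 CG sites, and on chromosome 5, LOC8076785 had 138 CHG and 11 CG sites. In LOC8076785, 120 of the CHG sites lay on the plus strand and 18 on the minus strand. LOC8057990 on chromosome 7 had 126 CHG sites, LOC8082797 on chromosome 8 had 121, and LOC110433303 on chromosome 3 had 101. On chromosome 4, LOC8059057 had 84 CHG sites and 2 CG sites, the fewest CG sites among the 20.

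The other genes of this list had between 55 and 79 CHG sites. On chromosome 8 these were LOC110429919 with 79, its neighbour LOC110429920 with 65 and LOC8084237 with 63 CHG sites, of which the first 2 have overlapping windows and share sites. On chromosome 9, LOC8065328 had 77 CHG sites, 5 on the plus strand and 72 on the minus strand. The pseudogenes LOC8061111 and LOC110430500 on chromosome 9 had 57 and 55 CHG sites. LOC110430500 was the exception in the list, with 55 CG sites as well. On chromosome 2, LOC110432596 had 69 CHG sites and LOC8075078 had 59. LOC110432972 on chromosome 1 had 58 CHG sites, and LOC110434563 on chromosome 4, a long non-coding RNA gene, had 55. The long non-coding RNA gene LOC8076780 on chromosome 5, with 17415 bases the longest of the list, had 66 CHG sites, of which 65 lay on the plus strand and 1 on the minus strand. The gene table names these genes by locus symbols only, so their functions are not given here.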

How the data were processed

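Bisulfite sequencing of sorghum root libraries (2 LP, 2 SP) was analysed from 3 deposited tables, 1 per cytosine context. Groups were taken from the sample labels. According to the methods, the authors trimmed reads with Trim Galore, checked them with FastQC, aligned them and extracted methylation with Bismark, and used methylKit for the comparison between LP and SP. Tool versions, the build of the genome for bisulfite reads, a minimum for coverage and the threshold for listing a site were not given in the sources used here. The methods name a version of the sorghum genome for the RNA and histone mark reads of the study, but none for the bisulfite reads. Each row holds 1 cytosine (chromosome, start, end and strand) and the authors' signed difference in percent methylation, p-value and q-value. These comparison columns, the signed difference included, were left unused, so no direction is given here, and listing depends on the authors' filters. The tables hold no level or depth per library.

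Positions were analysed with Python 3.11.15, numpy 2.4.6 and pandas 2.3.3, and plotted with matplotlib 3.10.9. Runs used a largest gap of 100 bases, bins were 1 Mb, and gene flanks were 1 kb. The RefSeq gene table gives no gene strand, so flanks on both sides were used where an upstream window was planned. The functions were tested on simulated positions. The 10 largest runs, the 10 fullest bins and the 20 genes with the most CHG sites were named. Members and lists were chosen with earlier results of these data known. Trinucleotides, promoter sequences, phosphate starvation genes (0 of 184 IDs matched the gene table) and DNA methylation genes were not analysed here.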

Additional observations from a re-analysis of the deposited data

How the results depend on the processing

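No paired analysis was possible because the tables pool the 4 libraries and hold no value per library, and for the same reason no library could be left out. Shares were compared with their 95% binomial interval (Wilson), which covers counting error only and treats each site as independent. Sites in a run are not independent, so these intervals are too narrow and are not printed. The share of CHG sites in runs, 51.1% as given, was 45.6%, 55.1% and 58.8% with largest gaps of 50, 200 and 500 bases and 48.4% with each strand partner pair counted once. The number of runs of 5 or more, 814, lay between 645 and 885 under these settings. The share with a CG site within 100 bases, 34.5%, was 12.9%, 29.4% and 53.4% at 10, 50 and 1000 bases and 33.4% with pairs counted once. The share with a CHH site, 2.17%, was 0.514%, 1.49% and 8.74% at those distances. These shares grow with the distance by construction. The fullest 10% of bins held 35.01% with bins of 500 kb, 25.4% with bins of 2 Mb and 28.4% with pairs counted once, against 29.7% as given. The share in gene bodies, 27.2%, was 26.2% with pairs counted once and 21.4% with protein-coding genes only. The flank share, 11.7%, was 20.4% with 2 kb. The 25% of bins with the fewest genes held 12.7%, and the innermost 25% of bins by distance to the nearer chromosome end held 14.6%.

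Settings chosen after seeing the data left out runs of 5 or more. The partner share was then 2.56% against 8.64% (this setting was planned), the share near a CG site 26.5%, the fullest 10% of bins 20.7%, the share in gene bodies 19.97% and the share in the 25% of bins with the fewest genes 16.1%. The partner share of chromosome 9 was 9.19% without its 2 loci of the most CHG sites, against 14.6%. With each run counted once, the fullest 10% of bins held 19.4%. Windows upstream of phosphate starvation genes were not run.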
